A study of Mus musculus with 6 samples.

Results

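TREM and CD300 receptors are immunoglobulin-type receptors on the surface of myeloid cells. The 10 genes described here are 5 TREM genes (Trem1, Trem2, Trem3, Treml2 and Treml4), 4 CD300 genes (Cd300a, Cd300lb, Cd300lf and Cd300lh) and Tyrobp, the gene of the adaptor DAP12. They were taken by name from the 16840 gene symbols of the deposited count table, and all 10 were found. The names themselves were chosen by the measured levels of these genes in the groups compared, so the levels, changes and calls of the 10 genes are a description and support nothing by themselves.

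Most TREM receptors and some CD300 receptors signal through DAP12, with which they pair in the membrane and whose ITAM motif recruits the kinase SYK when a ligand binds. Other CD300 receptors, such as those encoded by Cd300a and Cd300lf, carry ITIM motifs in their own tails and recruit phosphatases that damp signalling. Many of these receptors bind lipids, lipoproteins or phosphatidylserine on dying cells, and alveolar macrophages clear such material from the airspace together with surfactant.

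The study sequenced RNA of alveolar macrophages from wild-type mice, labelled day 2, with 2 libraries in each of 3 groups. The cells had received the growth factor GM-CSF with DON, GM-CSF alone, or no GM-CSF. The labels give neither the full name nor the dose of DON, and they list AM as the cell line without telling how the cells were obtained or grown. Nothing in them ties replicates to different cultures or mice. The p-values therefore reflect the spread of these 6 libraries alone, which may be technical.

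Library totals lay between 28321986 and 35196387 counts, and 12340 genes passed the filter on low counts. Levels are given as CPM, counts scaled to the size of the library. All 14 alveolar macrophage markers found had counts in every group, with a summed level of 16336 to 16393 CPM in GM-CSF with DON, 12868 to 12869 CPM in GM-CSF and 9531 to 10269 CPM without GM-CSF. Chi3l3 carries much of that difference, at 7702 CPM in GM-CSF with DON, 5543 CPM in GM-CSF and 1814 CPM without GM-CSF. Of the 14 markers 6 were called lower and 5 higher with GM-CSF, against 29.3% and 27.5% of all genes tested. Emr1 was at 54.4 CPM with GM-CSF and 289 CPM without it. Car4 was at 656 CPM with GM-CSF and 0.226 CPM without it. The 5 neutrophil markers found summed to 11.9 to 13.8 CPM in GM-CSF with DON, 6.92 to 7.54 CPM in GM-CSF and 90.5 to 93.2 CPM without GM-CSF, with Camp at 0 in the last 2 groups. The 4 monocyte markers summed to between 2.10 and 5.75 CPM in any library, with Ly6c2 at 0 in both GM-CSF groups, and the 5 lymphocyte and NK markers to at most 0.861 CPM. The 6 dendritic cell markers summed to 25.4 to 25.6 CPM in GM-CSF with DON, 27.7 to 28.1 CPM in GM-CSF and 8.65 to 8.82 CPM without GM-CSF. The first 2 sums hide opposite changes. With DON, Clec9a was higher than with GM-CSF alone (15.5 against 8.50 CPM). Batf3 (5.35 against 10.1 CPM) and Zbtb46 (3.63 against 8.25 CPM) were lower. Of the mast cell markers only Kit was found, at no more than 0.101 CPM. The 4 osteoclast genes, mostly Ctsk and Acp5, which tissue macrophages also express, summed to 2515 to 2753 CPM in GM-CSF with DON, 1897 to 1966 CPM in GM-CSF and 4535 to 4547 CPM without GM-CSF. The other 2 went the opposite way, with Dcstamp at 15.5, 43.9 and 14.4 CPM and Ocstamp at 1.83, 10.7 and 0.303 CPM in GM-CSF with DON, GM-CSF and no GM-CSF. The 5 lung epithelium markers, mostly Cdh1, summed to 26.3 to 26.9 CPM in GM-CSF with DON, 96.0 to 102 CPM in GM-CSF and 14.7 to 18.8 CPM without GM-CSF. Only Cdh1 rose with GM-CSF. Epcam was lower, at 0.665 CPM with GM-CSF and 1.81 CPM without it. Scgb1a1 was also lower, at 0.134 and 1.07 CPM, and Sftpb and Sftpc were too low to be tested. The part of any other cell type in the receptor levels was not tested, and in bulk RNA fewer cells of a type and less RNA per cell cannot be told apart.

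The TREM genes lie in a cluster on chromosome 17 and the CD300 genes on chromosome 11, all annotated as protein-coding. In GRCm38, Trem1 spans chr17:48232768-48246924, Trem3 chr17:48247777-48258841, Treml4 chr17:48264295-48275360, Treml2 chr17:48299498-48312533 and Trem2 chr17:48346401-48354147, all on the plus strand. Cd300a spans chr11:114890041-114904654 on the plus strand, and Cd300lb (chr11:114922781-114934386) and Cd300lf (chr11:115116214-115133992) lie on the minus strand. Cd300lh, named Cd300ld3 in RefSeq, spans chr11:115042131-115048409 on the minus strand. Tyrobp, at chr7:30413760-30417585 on the plus strand, lies 126 bases from Hcst, the gene of the related adaptor DAP10, on the opposite strand. No exonic base of the 10 genes was shared with an overlapping annotated gene.

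The 250 bases before the transcription start were read from RefSeq's GRCm38.p6 promoters, which held 7 of the 10 genes. They are shown for Trem2 and Treml4, which were lower with GM-CSF, for Trem1, which moved against Trem2 when DON was added, and for Cd300lf, the CD300 gene that was higher with GM-CSF. Capitals mark matches, on either strand, to GAGGAA (a core bound by the macrophage factor PU.1), TTCNNNGAA (a STAT site), TGANTCA (an AP-1 site) or TTGCNNAA (a C/EBP-type site).
Trem2, plus strand, chr17:48346151-48346400: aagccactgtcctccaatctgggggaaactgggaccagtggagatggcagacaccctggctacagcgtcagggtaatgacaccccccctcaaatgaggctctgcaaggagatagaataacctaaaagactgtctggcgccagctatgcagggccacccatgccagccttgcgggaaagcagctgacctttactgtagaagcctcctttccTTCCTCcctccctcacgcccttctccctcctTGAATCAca
Treml4, plus strand, chr17:48264045-48264294: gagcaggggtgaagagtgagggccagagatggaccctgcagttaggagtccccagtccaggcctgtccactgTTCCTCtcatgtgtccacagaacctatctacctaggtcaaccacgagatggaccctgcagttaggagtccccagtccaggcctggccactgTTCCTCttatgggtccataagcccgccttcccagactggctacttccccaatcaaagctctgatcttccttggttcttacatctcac
Trem1, plus strand, chr17:48232489-48232738: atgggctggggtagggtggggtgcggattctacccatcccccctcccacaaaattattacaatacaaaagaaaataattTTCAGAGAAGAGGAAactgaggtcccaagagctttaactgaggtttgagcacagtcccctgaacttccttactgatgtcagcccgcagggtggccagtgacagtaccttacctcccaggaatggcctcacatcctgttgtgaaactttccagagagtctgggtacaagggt
Cd300lf, minus strand, chr11:115133993-115134242: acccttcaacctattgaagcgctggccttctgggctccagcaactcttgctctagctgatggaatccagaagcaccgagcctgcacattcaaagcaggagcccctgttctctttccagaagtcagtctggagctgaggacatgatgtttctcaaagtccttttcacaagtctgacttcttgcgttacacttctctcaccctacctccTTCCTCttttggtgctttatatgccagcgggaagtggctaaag
GAGGAA was present in 6 of the 7 promoters, all but that of Cd300lb, and in 23.3% of all 32851 RefSeq promoter windows of the same length. TTCNNNGAA was present in 1 of 7 (Trem1, where a GAGGAA follows it directly), against 7.02% of all windows. TGANTCA was present in 1 of 7 (Trem2), against 6.75% of all windows, and TTGCNNAA in 1 of 7 (Cd300a), against 9.56%. These are matches of letters, with no measure of binding.

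The counts of Cd300lh need care, because it has near-identical neighbours. Its transcript of 852 bases in GENCODE M21 differs from that of Cd300ld5 at 9 positions and from that of Cd300ld4 at 10 positions. Of its 100-base stretches, 80.9% occur unchanged in transcripts of other genes. The start of the coding sequence is shown, with the bases that differ among the 3 genes in capitals.
Cd300lh (Cd300ld3), transcript bases 115 to 174: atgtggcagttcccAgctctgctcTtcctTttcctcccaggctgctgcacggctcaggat
Cd300ld4, transcript bases 115 to 174: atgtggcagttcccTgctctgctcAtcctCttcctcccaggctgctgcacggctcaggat
Cd300ld5, transcript bases 115 to 174: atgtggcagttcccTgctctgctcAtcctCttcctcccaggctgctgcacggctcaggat
The table lists Cd300ld4 and Cd300ld5 under the older symbols Gm11710 and Gm11711, with no count in any GM-CSF library. Without GM-CSF, Gm11710 had 2 and 1 counts and Gm11711 had 7 and 0. Cd300ld2, which holds 15% of the 100-base stretches of Cd300lh, was not found among the gene symbols. How reads matching several genes were treated is not stated by the submitters, so the Cd300lh level may include reads of its copies or miss some of its own. For the other 9 genes at most 0.849% of 100-base stretches were shared with another gene.

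All 10 genes passed the filter on low counts, and in both libraries of a group 9 of 10 stood above its level with GM-CSF and DON (all but Trem3), 10 of 10 with GM-CSF and 10 of 10 without it. Levels of different genes were compared in FPKM, the authors' length-scaled values. Tyrobp was the most abundant of the 10 in every group, at 2778 ± 93.1 FPKM in GM-CSF with DON, 2037 ± 97.4 FPKM in GM-CSF and 5135 ± 109 FPKM without GM-CSF (SD, n = 2). Its FPKM was 8.49 to 9.01 times the summed FPKM of the 9 receptors in GM-CSF with DON, 8.16 to 8.43 times in GM-CSF and 5.69 to 5.72 times without GM-CSF.

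The order of the receptors differed between groups. With GM-CSF and DON, Trem2 led at 166 ± 0.214 FPKM, before Cd300lf (105 ± 0.755), Cd300a (29.1 ± 3.34), Cd300lb (13.3 ± 0.413), Cd300lh (2.44 ± 0.573) and Treml4 (0.752 ± 0.258), each apart from the next in both libraries. Trem1, Trem3 and Treml2 were lowest there, at 0.318 ± 0.103, 0.205 ± 0.0758 and 0.179 ± 0.0367 FPKM, each overlapping its neighbour. With GM-CSF, Cd300lf led at 102 ± 1.15 FPKM, ahead of Trem2 at 87.7 ± 2.85 FPKM. Cd300a and Cd300lb followed at 24.3 ± 0.972 and 24.1 ± 2.09 FPKM with overlapping libraries. Cd300lh, Trem1, Treml2 and Treml4 came next with overlapping neighbours, at 2.43 ± 1.37, 1.50 ± 0.222, 1.36 ± 0.0320 and 1.24 ± 0.190 FPKM, and Trem3 was lowest at 0.722 ± 0.0435 FPKM. Without GM-CSF, Trem2 led at 595 ± 19.3 FPKM, before Cd300lh (96.3 ± 0.879), Cd300lb (70.8 ± 0.775), Cd300a (51.0 ± 1.46), Cd300lf (45.8 ± 3.16) and Treml4 (35.2 ± 0.169), each apart from the next. Trem1 and Trem3 overlapped at 2.83 ± 0.516 and 2.79 ± 0.0618 FPKM, and Treml2 was lowest at 0.797 ± 0.239 FPKM. Cd300lf thus stood above the other 3 CD300 genes with GM-CSF, with or without DON, and below them without it. The summed FPKM of the 5 TREM genes was 168 ± 0.0202 in GM-CSF with DON, 92.5 ± 2.90 in GM-CSF and 636 ± 19.7 without GM-CSF. That of the 4 CD300 genes was 149.7 ± 2.74 in GM-CSF with DON, 153 ± 3.29 in GM-CSF and 264 ± 2.96 without GM-CSF. The reservation above about the copies of Cd300lh applies to its rank and to the sums that include it.

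**Figure D1:**
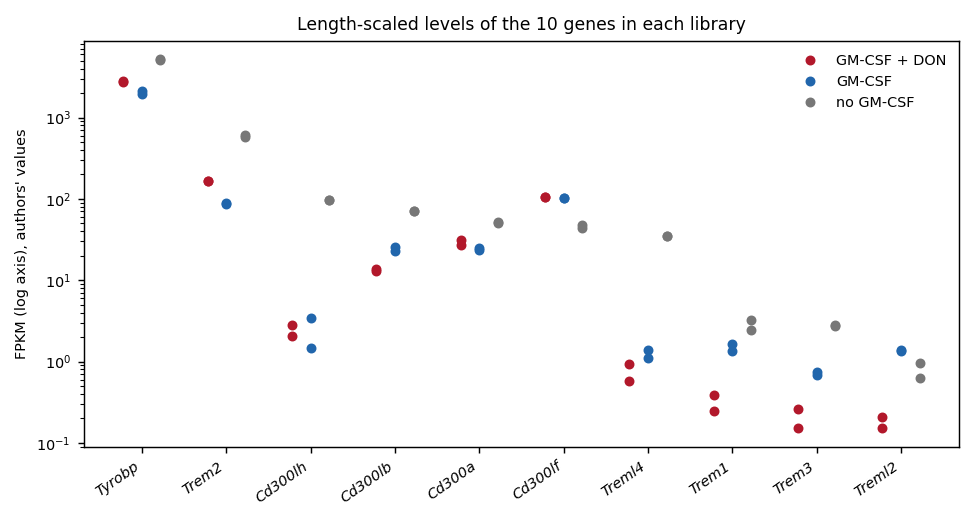
Authors' FPKM values (log axis) of the 10 genes in each library, with 2 points per group. Tyrobp lies above all receptors in each group, and Cd300lf is the only one of the 4 CD300 genes with a higher level in both GM-CSF groups than without GM-CSF.

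With GM-CSF, 10 of the 10 genes were called at an adjusted p under 0.05 in edgeR's quasi-likelihood test, 8 lower and 2 higher than without GM-CSF. Of all 12340 genes tested, 56.8% were called, 29.3% lower and 27.5% higher, and 78.7% had groups that did not overlap. The median log2 fold change of the 10 genes was -1.44, against -0.02 for all genes tested. When DON was added to GM-CSF, 8 of the 10 were called, 5 lower and 3 higher than with GM-CSF alone. Of all genes 57.6% were called, 28.8% lower and 28.8% higher, and 79.4% did not overlap, with a median of -0.34 for the 10 genes and 0.01 for all. With GM-CSF and DON against no GM-CSF, 10 of the 10 were called, 9 lower and 1 higher. Of all genes 55.6% were called, 28.4% lower and 27.2% higher, and 77.6% did not overlap, with a median of -2.17 for the 10 genes and 0.01 for all. Nothing is read from these counts, because the genes were chosen on the same contrasts. The first 2 comparisons share the GM-CSF libraries, so their values are only set side by side.

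**Figure D2:**
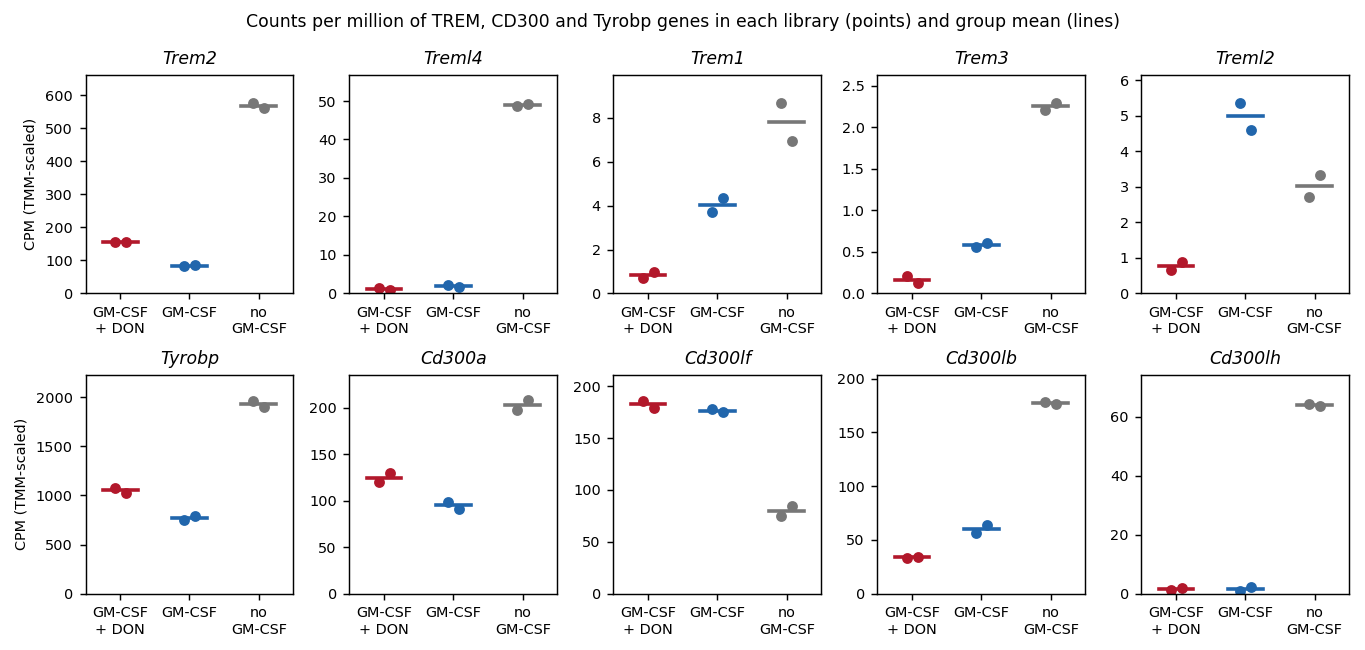
CPM of each of the 10 genes in each library (points) with the group mean (line), on a linear axis from 0 for each gene. The libraries without GM-CSF are highest for all genes but Treml2 and Cd300lf, and Trem2, Tyrobp and Cd300a lie higher with DON than with GM-CSF alone.

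Among the receptors that pair with DAP12, Trem2 binds lipids and lipoproteins and promotes phagocytosis by tissue macrophages. It had 154 and 155 CPM in GM-CSF with DON, 81.4 and 84.7 CPM in GM-CSF, and 577 and 559.5 CPM without GM-CSF. No groups overlapped, and the group without GM-CSF stood highest. Trem2 was 6.85-fold lower with GM-CSF than without it (log2 fold change -2.78 ± 0.04, SE). It was 1.86-fold higher with DON than with GM-CSF alone (0.90 ± 0.04), which left it 3.68-fold lower than without GM-CSF (-1.88 ± 0.04).

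Treml4, a receptor that binds dead cells, had 1.33 and 0.891 CPM in GM-CSF with DON, 2.08 and 1.54 CPM in GM-CSF, and 48.7 and 49.3 CPM without GM-CSF. It was low in both GM-CSF groups, and no groups overlapped. It was 26.7-fold lower with GM-CSF than without it (-4.74 ± 0.13). The further difference with DON was -0.74 ± 0.22. That call was lost without GM-CSF with DON replicate 2 (-0.46) and without GM-CSF replicate 1 (-0.49).

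Trem1 amplifies inflammatory responses of neutrophils, monocytes and macrophages. It had 0.699 and 0.983 CPM in GM-CSF with DON, 3.73 and 4.33 CPM in GM-CSF, and 8.67 and 6.95 CPM without GM-CSF. Its levels were low in every group and lowest with DON, and no groups overlapped. It was 1.94-fold lower with GM-CSF than without it (-0.96 ± 0.16) and 4.72-fold lower with DON than with GM-CSF alone (-2.24 ± 0.23). Per length, Trem2 was at 678 and 426 times the FPKM of Trem1 in GM-CSF with DON, 63.9 and 54.2 times in GM-CSF, and 190.3 and 236 times without GM-CSF. The 3 neutrophil markers tested, Cxcr2, Csf3r and S100a8, were lower with GM-CSF. With DON, Cxcr2 was higher than with GM-CSF alone (1.69 ± 0.10). Csf3r was higher too (0.76 ± 0.27), on 31 and 26 against 20 and 15 counts, and S100a8 was not called (-0.26 ± 0.15). Whether neutrophils contributed to the Trem1 level was not tested.

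Trem3, a DAP12-coupled receptor of mouse macrophages encoded next to Trem1, had 6 and 4 counts in GM-CSF with DON, 19 and 18 in GM-CSF, and 72 and 77 without GM-CSF. These few counts put the groups in the same order as Trem1, without overlap. Its log2 fold changes were -1.95 ± 0.29 with GM-CSF and -1.80 ± 0.44 with DON added.

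Treml2 encodes TLT-2, which is found on macrophages, neutrophils and B cells. It had 0.664 and 0.891 CPM in GM-CSF with DON, 5.37 and 4.60 CPM in GM-CSF, and 2.71 and 3.33 CPM without GM-CSF. Of the 5 TREM genes it alone was higher with GM-CSF than without it, by 1.65-fold (0.73 ± 0.18), a call lost without GM-CSF replicate 1 (0.61). With DON it was 6.35-fold lower than with GM-CSF alone (-2.67 ± 0.23) and 3.84-fold lower than without GM-CSF (-1.94 ± 0.24).

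Tyrobp, the gene of the DAP12 adaptor, had 1079 and 1027 CPM in GM-CSF with DON, 747 and 790.4 CPM in GM-CSF, and 1965 and 1903 CPM without GM-CSF. The groups stood in the same order as for Trem2, without overlap. It was 2.52-fold lower with GM-CSF than without it (-1.33 ± 0.04) and 1.37-fold higher with DON than with GM-CSF alone (0.45 ± 0.04). Per length, Trem2 stood at 5.85 and 6.14% of the FPKM of Tyrobp in GM-CSF with DON, 4.35 and 4.26% in GM-CSF, and 11.7 and 11.5% without GM-CSF.

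Of the ITIM-bearing receptors, Cd300a binds phosphatidylserine and phosphatidylethanolamine and inhibits myeloid cells. It had 119.8 and 130.4 CPM in GM-CSF with DON, 99.2 and 91.6 CPM in GM-CSF, and 198 and 208 CPM without GM-CSF. The groups did not overlap. It was 2.13-fold lower with GM-CSF than without it (-1.09 ± 0.06) and 1.31-fold higher with DON than with GM-CSF alone (0.39 ± 0.06).

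Cd300lf, or CLM-1, inhibits through its ITIM motifs and recognises lipids such as ceramide and phosphatidylserine. It had 186 and 179.5 CPM in GM-CSF with DON, 178 and 175 CPM in GM-CSF, and 74.7 and 84.1 CPM without GM-CSF. All 4 libraries with GM-CSF stood above both libraries without it. Cd300lf was 2.22-fold higher with GM-CSF than without it (1.15 ± 0.06). With DON the difference from GM-CSF alone was 0.05 ± 0.06 and was not called. Per length, Cd300lf was at 3.94 and 3.31 times the FPKM of Cd300a in GM-CSF with DON, 4.37 and 4.06 times in GM-CSF, and 0.872 and 0.923 times without GM-CSF.

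Cd300lb, or CLM-7, is an activating receptor that couples to DAP12. It had 33.6 and 33.9 CPM in GM-CSF with DON, 56.9 and 63.5 CPM in GM-CSF, and 178 and 176 CPM without GM-CSF. The 3 groups did not overlap, and DON was lowest. It was 2.95-fold lower with GM-CSF than without it (-1.56 ± 0.06) and 1.78-fold lower with DON than with GM-CSF alone (-0.83 ± 0.06). Per length, Cd300lf was at 7.77 and 8.03 times the FPKM of Cd300lb in GM-CSF with DON, 4.55 and 3.96 times in GM-CSF, and 0.611 and 0.684 times without GM-CSF.

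Cd300lh, with the reservation above about its copies, had 39 and 62 counts in GM-CSF with DON, 33 and 67 in GM-CSF, and 2093 and 2140 without GM-CSF. It was low in both GM-CSF groups, whose libraries overlapped each other. It was 40.6-fold lower with GM-CSF than without it (-5.34 ± 0.19), the largest difference of the 10 genes in that comparison, and the log2 fold change was -6.04 without GM-CSF replicate 2. With DON the difference from GM-CSF alone was 0.07 ± 0.32 and was not called. It was 0.77 and called without GM-CSF replicate 2, and -0.45 without GM-CSF replicate 1.

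Family genes outside the list were examined in the same test. Of 11 further TREM and CD300 names, 8 were found as other genes and 6 were tested. With GM-CSF 5 of the 6 fell and 0 rose, with a median log2 fold change of -2.24. Of all 12340 genes tested, 29.3% were called lower and 27.5% higher in that comparison. This list and those below were chosen with earlier results of these data known, so nothing is read from their counts. Cd300ld, or CLM-5, had 41.0 and 48.6 CPM with GM-CSF and 291 and 299.8 CPM without it (-2.72 ± 0.07, adjusted p = 1.52e-09), the highest level of the 6. Cd300e, an activating receptor of monocytes, had 27 and 14 counts with GM-CSF and 244 and 271 without it (-3.60 ± 0.24, adjusted p = 7.64e-07). B430306N03Rik, which RefSeq also names Treml6, was at 19.0 ± 2.49 CPM with GM-CSF and 53.1 ± 2.50 CPM without it (SD, n = 2; adjusted p = 2.73e-07 in edgeR). Treml1, known from platelets, had 8 and 6 counts with GM-CSF and 36 and 28 without it (adjusted p = 0.00147). Cd300c had 4 and 2 counts with GM-CSF and 13 and 20 without it (adjusted p = 0.00872), although RefSeq also gives this symbol as an older name of Cd300c2. These 5 fell, while Cd300lg, with 105 and 65 counts with GM-CSF and 113 and 111 without it, did not pass (adjusted p = 0.163).

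With DON, 3 of these 6 genes fell below GM-CSF alone and 0 rose, with a median of -0.98. Of all genes tested, 28.8% were called lower and 28.8% higher. Cd300ld had 25.9 and 27.3 CPM with DON and 41.0 and 48.6 CPM with GM-CSF alone (-0.75 ± 0.08, adjusted p = 2.44e-05). Cd300e had 8 and 5 counts with DON and 27 and 14 with GM-CSF alone (adjusted p = 0.01). Cd300lg had 32 and 38 counts with DON and 105 and 65 with GM-CSF alone (adjusted p = 0.0015). Treml1, Cd300c and B430306N03Rik did not pass, with adjusted p = 0.418, 0.137 and 0.315.

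**Figure D3:**
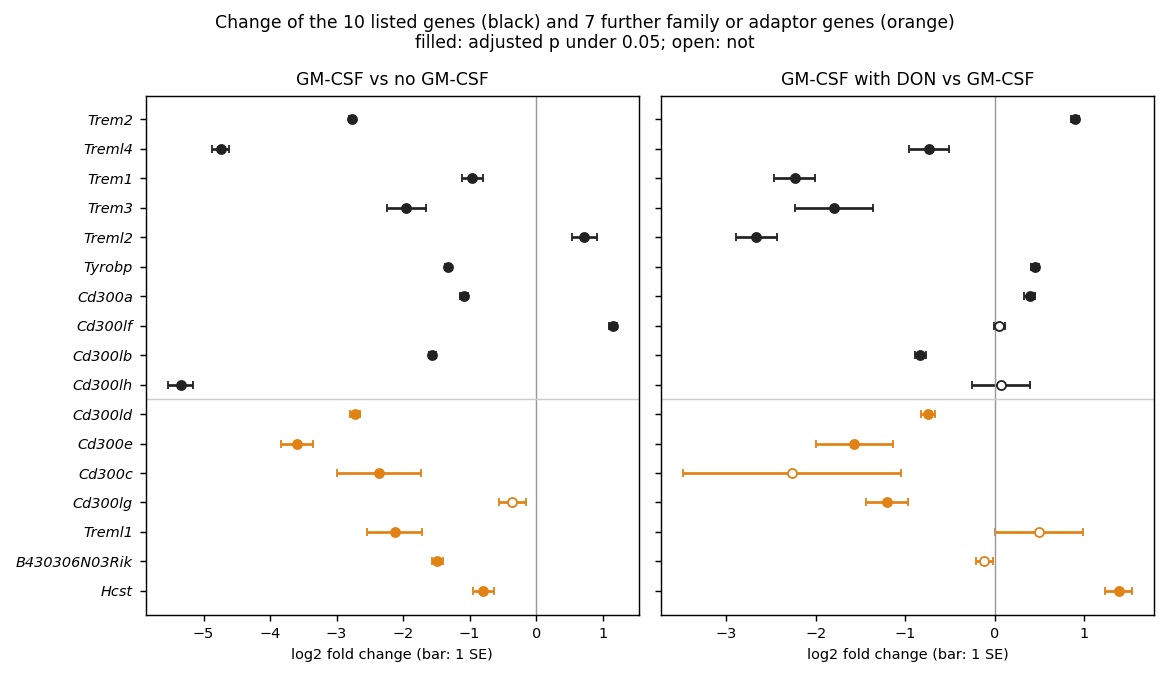
Log2 fold changes with 1 SE for the 10 listed genes (black) and 7 further family or adaptor genes (orange), for GM-CSF against no GM-CSF and for GM-CSF with DON against GM-CSF, with filled points where adjusted p was under 0.05. All but Treml2 and Cd300lf lie below 0 in the first comparison, while Trem2, Tyrobp, Cd300a and Hcst are the filled points above 0 in the second.

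Adaptors and kinases of the ITAM route were a list of 23 genes, all tested. With GM-CSF 15 fell and 4 rose, against 29.3% and 27.5% of all genes tested, with a median of -0.33. The SRC-family kinase gene Fgr fell by 1.46 ± 0.05 on the log2 scale (adjusted p = 8.39e-09), and the adaptor gene Grb2 fell by 0.60 ± 0.04 (adjusted p = 8.32e-07). The PI3-kinase subunit gene Pik3cd (0.89 ± 0.04), the adaptor gene Lcp2 (0.86 ± 0.04) and the kinase gene Lyn (0.16 ± 0.04) rose, with adjusted p = 8.45e-08, 1.12e-07 and 0.00965. With DON 15 of the 23 fell and 4 rose, against 28.8% each way of all genes tested, with a median of -0.35. Fgr (-1.11 ± 0.05) and Malt1 (-0.55 ± 0.04) fell, with adjusted p = 1.78e-07 and 3.07e-06. Grb2 (0.39 ± 0.04, adjusted p = 2.02e-05) and the FcR gamma chain gene Fcer1g (0.11 ± 0.04, adjusted p = 0.0433) rose.

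Other adaptors can be set beside Tyrobp. Hcst had 5.84 and 6.02 CPM in GM-CSF with DON, 2.41 and 2.12 CPM in GM-CSF, and 3.78 and 4.07 CPM without GM-CSF. It fell with GM-CSF (-0.79 ± 0.15, adjusted p = 0.00148) and rose with DON added (1.39 ± 0.15, adjusted p = 2.92e-05), to a level above that without GM-CSF (0.59 ± 0.14, adjusted p = 0.00444). Fcer1g was at 984 ± 50.8 CPM in GM-CSF with DON, 912 ± 7.15 CPM in GM-CSF and 1347 ± 6.47 CPM without GM-CSF. The gene of SYK, the kinase that DAP12 recruits, fell in both steps, with Syk at 509 ± 2.72 CPM in GM-CSF with DON, 588 ± 4.65 CPM in GM-CSF and 778 ± 9.03 CPM without GM-CSF.

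Genes of the inhibitory route numbered 17, all tested. With GM-CSF 11 fell and 2 rose, against 29.3% and 27.5% of all genes tested, with a median of -0.34. Lilrb3 (-1.24 ± 0.04), the lectin gene Clec12a (-1.05 ± 0.05) and Ptpn6, the gene of the phosphatase SHP-1 that ITIMs recruit (-0.94 ± 0.04), fell, with adjusted p = 4.96e-09, 9.15e-08 and 4.26e-08. Clec4a2 (0.46 ± 0.04) and Dok2 (0.46 ± 0.06) rose. With DON 11 fell and 3 rose, against 28.8% each way of all genes tested, with a median of -0.36. Dok2 (-1.77 ± 0.06), Clec12a (-1.50 ± 0.06) and Clec4a2 (-1.30 ± 0.04) fell, and Lilrb3 (0.53 ± 0.04), Dok1 (0.57 ± 0.06) and Sirpa (0.41 ± 0.03) rose.

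A list of 18 other activating receptors of myeloid cells, of which 15 were tested, mixes receptors that pair with DAP12 or the FcR gamma chain with others, such as Clec7a and Csf1r, that signal through their own tails. With GM-CSF 11 fell and 3 rose, against 29.3% and 27.5% of all genes tested, with a median of -0.77. The lectin genes Clec4d and Clec4e fell to 35.6 ± 1.09 and 40.6 ± 4.62 CPM with GM-CSF, against 252 ± 10.6 and 259 ± 21.4 CPM without it (adjusted p = 3.84e-10 and 3.79e-09 in edgeR). The Fc receptor gene Fcgr4 fell (-1.96 ± 0.06), and Clec4n (1.43 ± 0.04), Fcgr1 (1.37 ± 0.08) and the beta-glucan receptor gene Clec7a (0.41 ± 0.03) rose. With DON 6 rose and 6 fell, against 28.8% each way of all genes tested, with a median of 0.03. Clec4d (1.04 ± 0.06), Clec4e (1.13 ± 0.08) and Fcgr4 (0.79 ± 0.06) rose above GM-CSF alone, and Fcgr1 (-1.21 ± 0.08), Clec7a (-0.54 ± 0.03) and the CSF-1 receptor gene Csf1r (-0.58 ± 0.07) fell.

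Ligands of these receptors, and genes that shed or process Trem2, were a list of 17, of which 14 were found and 13 tested. With GM-CSF 6 fell and 1 rose (median -0.13), and with DON 6 rose and 4 fell (median 0.08). Of all genes tested, 29.3% fell and 27.5% rose with GM-CSF, and 28.8% went each way with DON. Apoe, a Trem2 ligand, was at 11.5 ± 1.35 CPM in GM-CSF with DON, 5.83 ± 1.13 CPM in GM-CSF and 28.9 ± 1.68 CPM without GM-CSF. It fell with GM-CSF (-2.30 ± 0.12, adjusted p = 1.97e-07) and rose with DON added (0.96 ± 0.14, adjusted p = 0.000184). Hmgb1, an alarmin gene linked to Trem1, rose with GM-CSF (0.46 ± 0.06) and fell with DON (-0.66 ± 0.06). Lgals3, the galectin-3 gene, did not pass with GM-CSF (-0.04 ± 0.04) and rose with DON (0.64 ± 0.04). Clu did not pass with GM-CSF (-0.93 ± 0.46) and fell with DON (-2.24 ± 0.63), and Timd4 was too low to be tested.

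Of the sheddase genes, Adam17 fell with GM-CSF (-1.01 ± 0.04) and rose with DON (0.37 ± 0.04), while Adam10 did not pass with GM-CSF (-0.12 ± 0.06) and fell with DON (-0.48 ± 0.06). Of the gamma-secretase genes, Psen2 fell with GM-CSF (-1.24 ± 0.04) and rose with DON (0.51 ± 0.04). Ncstn did likewise (-0.13 ± 0.04 and 0.26 ± 0.04), and Psenen fell with GM-CSF (-0.25 ± 0.08) and did not pass with DON (-0.02 ± 0.08). Aph1a passed in neither comparison (0.04 ± 0.05 and -0.08 ± 0.05). Ms4a7 fell to 2.45 ± 0.143 CPM with GM-CSF, against 27.0 ± 0.797 CPM without it (adjusted p = 2.97e-09 in edgeR), and rose with DON (0.40 ± 0.13). Ms4a6d did not pass with GM-CSF (-0.08 ± 0.05) and fell with DON (-0.21 ± 0.05).

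Genes of lipid-associated macrophages that are linked to Trem2 numbered 23, with 22 tested. With GM-CSF 16 fell and 3 rose, against 29.3% and 27.5% of all genes tested, with a median of -0.58. Gpnmb fell to 3399 ± 104 CPM with GM-CSF, against 11067 ± 224 CPM without it (-1.70 ± 0.04, adjusted p = 2.91e-10 in edgeR). The lysosomal genes Ctsd (-0.97 ± 0.03) and Lipa (-0.92 ± 0.03) fell, and Spp1 (1.59 ± 0.07), the sterol exporter gene Abcg1 (0.71 ± 0.04) and Csf1 (2.17 ± 0.15) rose. With DON 16 rose and 3 fell, against 28.8% each way of all genes tested, with a median of 0.39. Gpnmb (0.97 ± 0.03), Lgals3 (0.64 ± 0.04) and Ctsd (0.53 ± 0.03) rose, and Axl (-0.63 ± 0.04), Lpl (-0.44 ± 0.04) and Spp1 (-0.65 ± 0.07) fell. Apoe and Lgals3 stand in both of these last 2 lists.

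**Figure D4:**
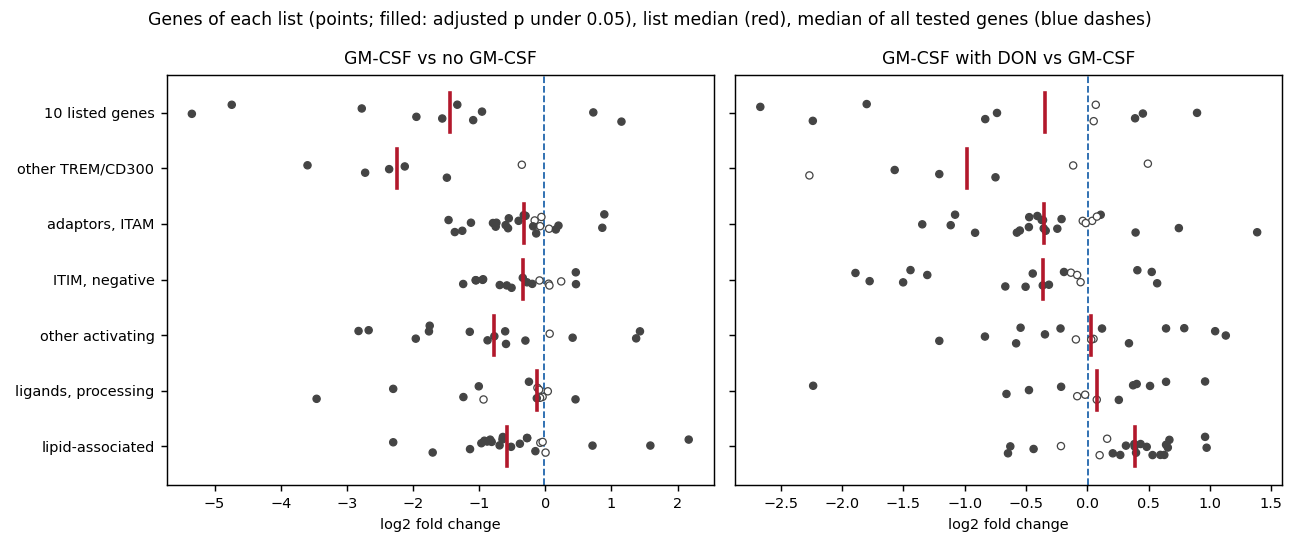
Log2 fold changes of the tested genes in each list (points), with the list median in red and the median of all 12340 tested genes as a dashed blue line. The lipid-associated list has a median of -0.58 with GM-CSF and 0.39 with DON added, and the other TREM and CD300 genes have -2.24 and -0.98.

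Genes with the pattern most like that of Trem2, Treml4 and Cd300lf were sought among 8157 others with a mean of at least 10 CPM. Likeness was the distance between the group means of log2 CPM, centred for each gene, over 6 libraries in 3 groups. For Trem2 the nearest were the integrin subunit gene Itgb5 (distance 0.0572), Clec4d (0.106) and the metal transporter gene Slc11a1 (0.118). Itgb5 was at 81.8 CPM in GM-CSF with DON, 46.3 CPM in GM-CSF and 304 CPM without GM-CSF. For Cd300lf they were Zfp568 (0.00422), Taf4b (0.0417) and the macrophage elastase gene Mmp12 (0.0501). Mmp12 was at 13287 CPM in GM-CSF with DON, 13111 CPM in GM-CSF and 6048 CPM without GM-CSF. For Treml4 the nearest genes lay farther away, at 1.02 for Vsig8, 1.10 for Sema4d and 1.14 for Ikbke.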

How the data were processed

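RNA was measured in 6 libraries, grouped by their labels. The authors deposited whole-number counts per gene symbol and, in a second table, FPKM values of the same genes. The submitters' processing notes list mm10 as the build and the tools STAR (2.6.0a), Subread (1.4.6) with featureCounts, and DESeq2 (1.28.1). The annotation, the strand setting and the lengths behind the FPKM values were not stated. FPKM depends on those lengths and was used to compare genes within a library. Its values, sums and ratios are also set side by side between groups. FPKM and CPM of a gene do not keep a fixed ratio over libraries. Cd300a had 119.8 CPM and 26.8 FPKM in GM-CSF with DON replicate 1, against 91.6 CPM and 25.0 FPKM in GM-CSF replicate 2. Changes of single genes were therefore tested on counts.

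From the deposited counts, genes were filtered with filterByExpr (minimum count 10), scaled by TMM and fitted with 1 coefficient per group in edgeR 4.0.16 (R 4.3.3), which left 3 residual degrees of freedom. Contrasts were two-sided quasi-likelihood tests with Benjamini-Hochberg adjustment over 12340 genes, called at an adjusted p under 0.05. The SE is the size of the log2 fold change divided by the square root of F. The code was tested on simulated counts. Alternatives used DESeq2 1.42.0, limma 3.58.1 on log2(FPKM + 1) and log2(FPKM + 0.1), other scalings, no filter, only the 2 groups compared, a replicate block, and each library left out in turn.

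The 10 genes, 6 further gene lists and 8 marker lists were chosen with earlier results of these data known. In the family and ligand lists the tested genes were named. In the other lists up to 3 genes per direction were named, by smallest adjusted p and a mean of at least 10 CPM. Some genes that these rules pick are not reported here, though the list counts include them. Hcst, Syk and Csf1, and the levels of Fcer1g in all groups, were added after their values were seen. Replicates differed beyond sampling noise, with a chi-square per degree of freedom of 4.50 in GM-CSF with DON, 5.29 in GM-CSF and 8.46 without GM-CSF.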

Additional observations from a re-analysis of the deposited data

How the results depend on the processing

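The 30 log2 fold changes of the 10 genes were recomputed under the alternatives, and 413 of 420 recomputed values kept the direction and the side of the threshold. The direction changed only for Cd300lh between GM-CSF with DON and GM-CSF, which was not called, at -0.20 without GM-CSF with DON replicate 2 and -0.45 without GM-CSF replicate 1. Without GM-CSF replicate 2 it was 0.77 and called (adjusted p = 0.0372 in edgeR). Treml4 between the same groups was not called with only the 2 groups compared (-0.72), without GM-CSF with DON replicate 2 (-0.46) or without GM-CSF replicate 1 (-0.49), nor was Treml2 between GM-CSF and no GM-CSF without GM-CSF replicate 1 (0.61). Leaving out 1 library gave 5688 to 6895 called genes for GM-CSF against no GM-CSF (7014 with all), 5912 to 7302 for DON against GM-CSF (7111 with all) and 5739 to 6575 for DON against no GM-CSF (6859 with all). A left-out library leaves its group with 1, which is assumed to vary like the others. With total counts only, the median of all genes moved to 0.10 for GM-CSF against no GM-CSF and 0.11 for DON against no GM-CSF, and the first comparison split into 4587 higher and 2689 lower calls, against 3393 and 3621. With log2(FPKM + 1), where the pseudocount shrinks low genes by construction, Trem1 was at -0.92, Trem3 at -0.52 and Treml2 at -0.9996 between DON and GM-CSF (-2.24, -1.80 and -2.67 in edgeR), and Treml2 at -0.60 between DON and no GM-CSF (-1.94 in edgeR). The labels do not say whether the replicate numbers pair the samples. Over 8164 genes the replicate differences correlated at 0.07 between GM-CSF with DON and GM-CSF. The correlations with no GM-CSF were -0.31 for GM-CSF with DON and -0.05 for GM-CSF. With 1 replicate difference per group, these values cannot settle whether samples were paired. A replicate block gave 6708, 6882 and 6542 called genes in the 3 comparisons, and 10, 8 and 10 of the 10 genes. Few counts limit Trem3, Cd300c and Treml1. With GM-CSF and DON, counts were also few for other genes, such as Trem1 (20 and 32) and Treml2 (19 and 29). Treml4 (38 and 29) and Cd300e (8 and 5) were low there too.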

Other observations

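By the same measure of likeness, applied to the other genes after their values were seen, the genes nearest to Trem1 were the cytokine gene Tnf (distance 0.271) and the chemokine gene Ccl22 (0.281). Tnf was at 6.55 CPM in GM-CSF with DON, 29.6 CPM in GM-CSF and 72.2 CPM without GM-CSF. Because the search picks genes by their group means, a shared order of groups follows from the search itself. Ccl22 was at 1.91 CPM in GM-CSF with DON, 9.42 CPM in GM-CSF and 22.3 CPM without GM-CSF. For Cd300lb the nearest gene was Gpx3 (0.0263), and for Tyrobp it was Tmem51 (0.0220).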
